A study of Bos taurus with 6 samples.

Results

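The bovine VPS, SNX and CHMP genes are 73 genes whose products, with few exceptions, sort membrane proteins on endosomes, the compartments that receive material taken up at the cell surface. They were chosen by their symbols, as every row of the deposited RNA-seq table whose gene name starts with VPS, SNX or CHMP followed by a digit, and they make up 73 of the 36075 genes listed. There were 35 VPS genes (vacuolar protein sorting), 29 SNX genes (sorting nexins) and 9 CHMP genes (charged multivesicular body proteins), each under 1 Ensembl identifier. The genes were compared between blastocysts grown in vitro from oocytes matured with melatonin (MT) and blastocysts from oocytes matured without it. Melatonin was present at 1e-07 mol/L for the 22 h of maturation and, per the study's methods, fertilization and embryo culture then followed the same steps in both groups. Oocytes came from slaughterhouse ovaries of cattle whose age and breed the sample labels do not give. Each group had 3 libraries, also called pools here, each made from 3 pooled blastocysts of a separate in vitro production run, so a value is an average over embryos and over their cell types. Within a run the oocytes were pooled and divided at random among concurrent treatments, so a control and an MT-treated library can come from the same run, but the sources used here do not say which libraries do. The concentration, the pool size and the runs were taken from the study's methods, because the labels give only the treatment and a replicate number.

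A receptor that enters the cell in a vesicle reaches the early endosome, from which it is either returned to the plasma membrane or the Golgi apparatus or sent on to the lysosome to be degraded. CORVET and HOPS are tethering complexes that bring endosomes together and then join late endosomes to lysosomes. Retromer, with the sorting nexins, pulls receptors out of the degradative route, and the GARP complex receives the returning vesicles at the Golgi. The ESCRT complexes do the reverse, gathering ubiquitin-tagged receptors and pinching them into vesicles inside the endosome, and the ATPase VPS4 takes the ESCRT-III polymer apart afterwards. In a blastocyst, the trophectoderm is an epithelium that fills the cavity with fluid and takes up nutrients, and receptor uptake and recycling are known parts of that work.

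Levels are given as TPM, a transcript unit corrected for gene length and for library size, so levels of different genes can be set side by side. Of the 73 genes, the control libraries listed 51, 49 and 47 above 0 and each of the 3 MT-treated libraries listed 67. The same difference ran through the whole table, where between 8854 and 8953 genes were above 0 in a control library and between 14372 and 14408 in an MT-treated library. Across the tested genes the Pearson correlation between libraries was at least 0.991 within a group and at most 0.546 between the groups, as a description over genes, which are not independent replicates. Genes of the cell types of the blastocyst moved with the groups too. CDX2, a defining factor of the trophectoderm, and NANOG, a defining factor of the inner cell mass, were listed at 0 throughout the control group, whereas the MT group had 17.2, 15.03 and 16.1 TPM of CDX2 and 8.93, 8.23 and 8.88 TPM of NANOG. Of 8 trophectoderm markers 7 were above 0 in control and 8 in MT-treated blastocysts, and their summed level was 11391 to 11739 TPM in control and 10516 to 10874 TPM in MT-treated libraries. Of the 8, 6 were called higher, GATA2 and GATA3 among them, and 2 lower, so the lower sum rests on KRT8, which went from between 8541 and 8828 TPM to between 6756 and 7010 TPM. Of 6 inner cell mass markers 5 were above 0 in control and 6 in MT-treated blastocysts, with sums of 264 to 268 and 316 to 321 TPM. Of these, 3 were called higher (KLF4, NANOG and SOX2), 2 lower (SALL4 and LIN28B) and POU5F1 was not called, and KLF4 alone went from at most 19.2 to at least 83.6 TPM. Of 5 hypoblast markers 1 was above 0 in control and 4 in MT-treated blastocysts, with sums of 0.2 to 0.44 and 61.2 to 69.5 TPM. Oocyte transcripts summed to 0 in control and to at most 1.09 TPM in MT-treated libraries, and cumulus and granulosa cell markers to 96.1 to 97.7 and 96.9 to 99.5 TPM, with FOXL2, HAS2, PTX3 and TNFAIP6 at 0 in both groups. That sum was nearly all CYP11A1, which was called higher, and FSHR, which was called lower. The part of cell type in the results that follow was not tested, and in pooled embryos a lower level in each cell cannot be told apart from fewer cells of a type.

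Among the endosomal sorting genes, 37 were called higher and 25 lower in the MT group, so that they did not move as a block. The words rose and fell are used below for a higher or lower level in the MT group. Whether the groups also differed in library preparation or processing is not given in the sources used here, and such a difference cannot be told apart from an effect of MT. The gap in the number of genes listed above 0 and the correlation of at most 0.546 between groups stand beside each of the following results. All 5 subunits of the Golgi tethering complexes GARP and EARP rose, but VPS50, VPS51 and VPS52 were at 0 throughout control. VPS53 and VPS54 turned under quantile normalization. In retromer and retriever 4 of 5 tested genes fell, of which VPS26B turned after median centring. HOPS and CORVET were split, with VPS16 higher and VPS8 and VPS41 lower among the subunits at 1 TPM or more in all 6 libraries. These counts cover the 64 genes that reached 1 TPM in 3 or more libraries, tested with limma on log2(TPM + 1) together with all 11953 genes that met this condition. In all, 62 of the 64 (96.9%) had an adjusted p-value under 0.05, where the share over all tested genes was 95.7%. The 37 higher genes were 57.8% and the 25 lower genes 39.1% of those tested, beside 61.6% and 34.1% over all tested genes. Changes of 2-fold or more, measured on log2(TPM + 1), were found for 29 higher and 12 lower genes (45.3% and 18.8%), of which 15 of the higher were at 0 throughout control and 14 were not, beside 51% and 19.6% over all tested genes. The values of the groups did not overlap for 61 of the 64 genes (95.3%), where 96.1% of all tested genes showed no overlap. Each of these shares lies near its background, so the counts describe the genes and do not set them apart from the transcriptome. With 3 libraries against 3, an exact permutation test (two-sided) for any single gene cannot go below p = 0.1, and the calls rest on limma's estimate of the spread, which is shared across genes.

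**Figure D1:**
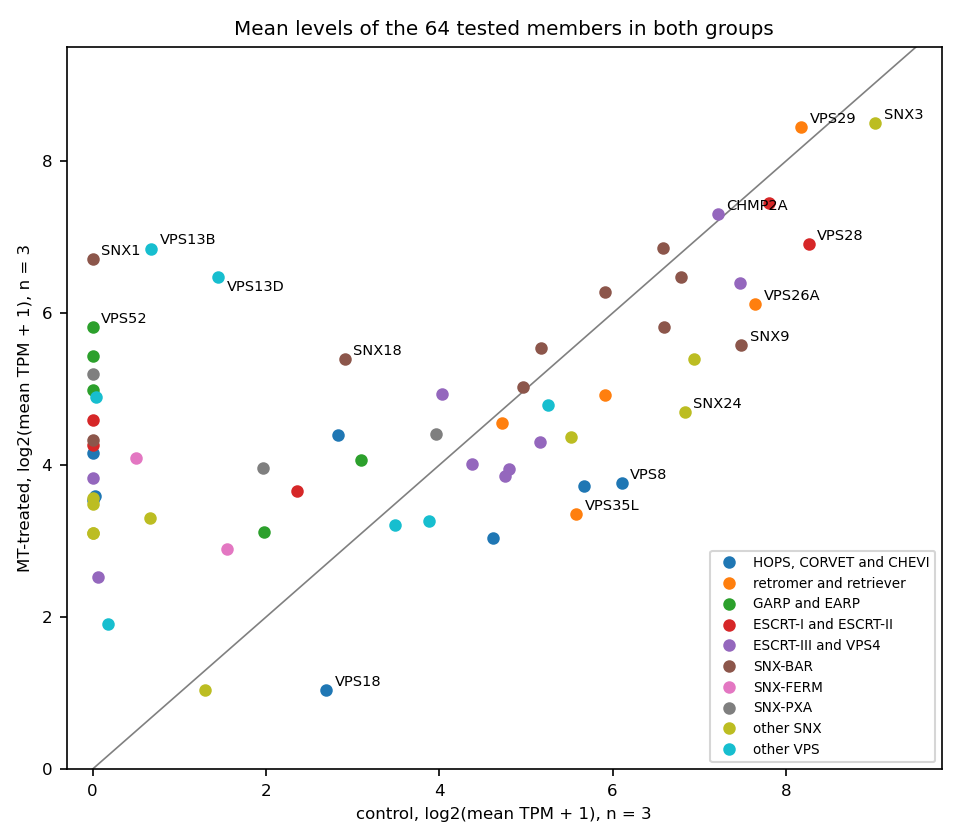
Each point is 1 of the 64 tested VPS, SNX and CHMP genes, placed by log2(mean TPM + 1) over 3 control libraries (x axis) and 3 MT-treated libraries (y axis) and coloured by complex or family, and the line marks equal levels. The 15 genes listed at 0 in control form the column at the left edge, headed by SNX1, while VPS28, VPS26A, SNX9, SNX24 and VPS8 lie below the line.

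Among the 37 genes that rose, 15 had a listed level of 0 in the whole control group (23.4% of the 64 tested, beside 33.8% of all tested genes), and 0 of the 64 had a listed level of 0 in the whole MT-treated group, beside 3.01% of all tested genes. A listed 0 can stand for a missing transcript or for one that escaped capture or counting, and TPM does not keep the counts that would separate these cases. For the 15 genes the value of each library is therefore given without a fold change. A further 7 of the 37 (VPS11, CHMP4B, SNX27, SNX12, VPS13B, VPS45 and VPS9D1) were under 1 TPM in all control libraries. These 22 genes (34.4% of the 64 tested, beside 42.5% of all tested genes) passed the filter only through the group in which they were high and so had to differ. Their calls are a description, the counts that include them support nothing further, and no p-value is printed for them. The same holds for VPS13D and VPS18, which reached 1 TPM in only 1 control library and in only 2 MT-treated libraries, respectively. Among the 15 genes at 0 throughout control, the mean level in MT-treated blastocysts ran from 7.59 TPM for SNX15 to 103 TPM for SNX1. To be tested, a gene at 0 in control had to reach 1 TPM in every MT-treated library, so CHMP7 and SNX33, also at 0 in control but fainter with MT, are not among the 15. Of the 8 members with at least 100 TPM in MT-treated blastocysts, 1 was at 0 in control, and the same was true of 14 of 1249 tested genes at that level (1.12%). Between 20 and 100 TPM it was 5 of 24 members (20.8%) and 860 of 3609 tested genes (23.8%), and between 5 and 20 TPM 9 of 28 members (32.1%) and 2088 of 4422 tested genes (47.2%). The listed zeros became less frequent toward high levels in the whole table, and SNX1 is the member among the 14 genes at 0 in control at the highest levels. Among the 45 tested members above 0 in all 6 libraries, 18 were higher and 25 lower (40.0% higher), beside 40.6% higher among the 6925 tested genes of that kind, and the median log2 fold change was -0.31 for the members and -0.19 for those genes. Over all 64 tested members it was 0.41, and over all tested genes 1.12.

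**Figure D2:**
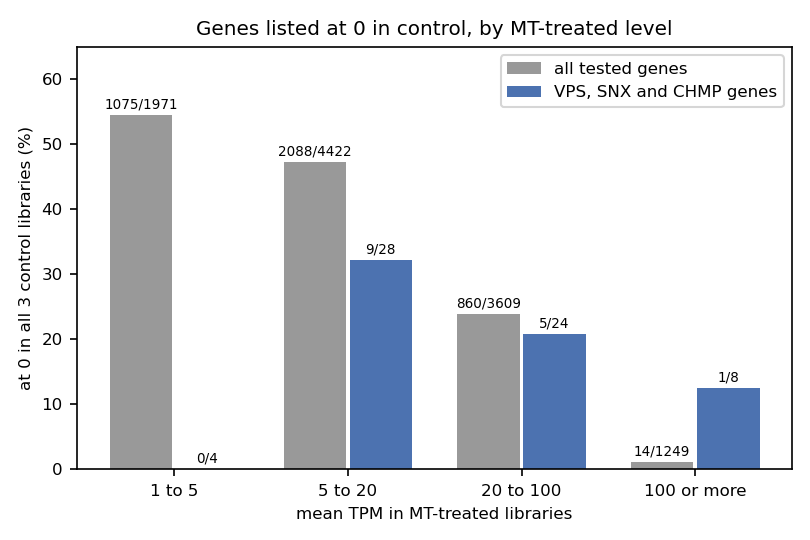
Bars give the share of genes listed at 0 in all 3 control libraries (y axis, percent) within 4 classes of mean TPM in the MT-treated pools (x axis), for all tested genes in grey and for the VPS, SNX and CHMP genes in blue, with counts above each bar. The share in all tested genes goes from 54.5% in the lowest class to 1.12% in the highest.

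The size of a change also depends on how libraries are scaled. When each library was centred on the median of genes with at least 1 TPM in all 6 libraries, a shift of -0.48 on the log2 scale between the groups was removed, so a gene that fell by less than this amount lay above the centre. With that centring 43 members were higher and 18 lower, beside 8412 and 3038 of all 11953 tested genes. Quantile normalization gives all libraries the same distribution. With it 28 members were higher and 30 lower, beside 5550 and 5311 of all tested genes, so the counts shifted in the whole table. Genes whose direction turned under either scaling are named with their values below.

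HOPS and CORVET share the 4 core subunits VPS11, VPS16, VPS18 and VPS33A. HOPS adds VPS39 and VPS41, and CORVET adds VPS8 and a partner outside this family. Of the core subunits 3 were higher and VPS18 was lower. Only VPS16 had 1 TPM or more in all 6 libraries, so these calls do not show whether the core moved together. VPS33A, the SM protein of the core, which guides membrane fusion by SNARE proteins, was listed at 0 in every control pool, and reached 17.3, 17 and 16.2 TPM in the MT-treated pools. VPS11 (ENSBTAG00000005357) had 0.01, 0.06 and 0 TPM in control pools and 11.2, 10.8 and 11.2 TPM in the MT-treated pools, with control values close to 0 throughout. VPS16, which holds VPS33A in the complex, had 5.49, 5.97 and 6.84 TPM in control against 19.2, 23.4 and 17.5 TPM in MT-treated pools, a log2 fold change of 1.56 (SE 0.12, adjusted p = 2.28e-05 by limma). In contrast VPS18 had 5.68, 4.93 and 5.86 TPM in control against 0.98, 1.11 and 1.08 TPM in MT-treated pools. In MT-treated blastocysts VPS18 was thus the scarcest subunit of the core, whereas in control it lay close to VPS16 and above VPS11 and VPS33A.

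The subunits that tell HOPS from CORVET also differed. VPS8, the CORVET subunit that binds early endosomes, had 68.6, 70.5 and 64.3 TPM in control against 13.8, 9.76 and 14.04 TPM in MT-treated pools, the largest fall of the 8 genes with a log2 fold change of -2.36 (SE 0.14, adjusted p = 4.83e-06 by limma). Of the HOPS pair, VPS41 fell from 23.3, 25.3 and 22.2 TPM to 6.87, 6.75 and 8.14 TPM (log2 fold change -1.58, adjusted p = 2.5e-06 by limma), and VPS39 was listed at 0 in every control pool, and reached 12.8, 6.96 and 12.2 TPM in the MT-treated pools, where the second replicate stood below the other 2. VPS33B, a relative of VPS33A that works in the separate CHEVI complex, fell from 49.6, 48.6 and 51.9 TPM to 12.3, 11.4 and 12.99 TPM (log2 fold change -1.95, SE 0.05, adjusted p = 9.03e-08 by limma). No gene of this group had overlapping groups, as was so for 96.1% of all tested genes. For VPS11, VPS33A and VPS39 the filter required this. The direction of all 8 was unchanged under both other scalings, but VPS11 lost its call with quantile normalization, where its log2 fold change was 0.47. That left 3 of the 8 called higher. For VPS11, VPS18, VPS33A and VPS39 the kept direction is a description only. Summed over the 8 genes the level was 153 ± 2.21 TPM in control against 91.7 ± 3.89 TPM in MT-treated blastocysts (SD, n = 3 each), and VPS8 and VPS33B made up most of the control sum.

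**Figure D3:**
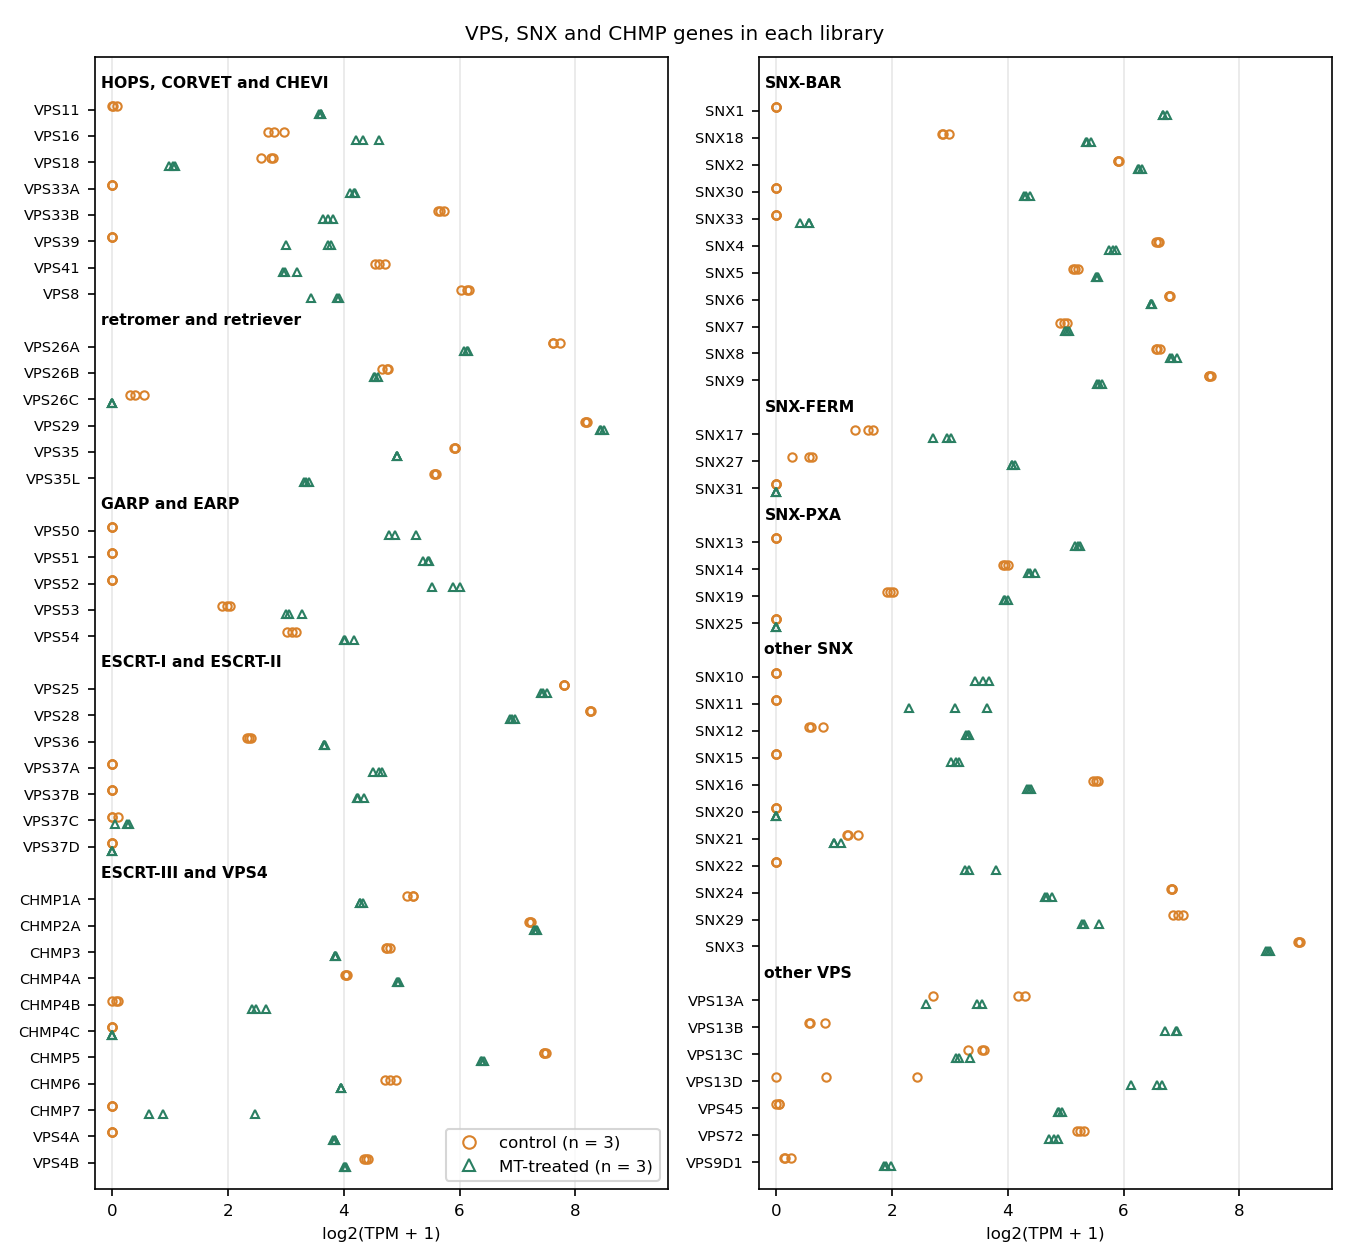
Each row is a gene and each mark a library, with log2(TPM + 1) on the x axis, 3 control libraries as circles and 3 MT-treated libraries as triangles, and genes grouped by complex or family. Libraries of a group lie close together for most genes, and VPS13A and VPS13D in control and SNX11 and CHMP7 in MT-treated blastocysts are visibly spread.

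In retromer VPS26A and VPS35 fell and VPS29 rose. The complex is built from VPS35, a long arched scaffold, VPS29, which sits on its far end, and VPS26, which exists as the paralogues VPS26A and VPS26B and links the scaffold to sorting nexins. VPS26A (ENSBTAG00000016882) had 194, 211 and 194 TPM in control against 66.5, 68.9 and 70.1 TPM in MT-treated pools, a log2 fold change of -1.53 (SE 0.04, adjusted p = 1.02e-07 by limma). VPS35 (ENSBTAG00000002493) had 59.4, 59.6 and 59.1 TPM in control against 29.4, 29.1 and 29.4 TPM in MT-treated pools, a log2 fold change of -0.995 (SE 0.02, adjusted p = 2.31e-08 by limma). VPS29, which is shared with the retriever complex, went the other way, with 286, 288 and 293 TPM in control against 341, 346 and 359 TPM in MT-treated pools (log2 fold change 0.27, SE 0.02, adjusted p = 3.6e-05 by limma). VPS26B changed least, from 24.4, 26.01 and 25.8 TPM to 22.96, 22.2 and 22.1 TPM, and its log2 fold change of -0.17 (adjusted p = 0.0035 by limma) became 0.31 (adjusted p = 0.000202 by limma) after median centring. The groups did not overlap for any of the 4 genes. VPS29 was the most abundant subunit in both groups. VPS35, which joins the others, was below VPS29 and VPS26A in both groups and above VPS26B in both.

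Retriever is a relative of retromer that recycles receptors with the help of SNX17, and it uses VPS35L as scaffold and VPS26C in place of VPS26. VPS35L (ENSBTAG00000019412) fell from 47.1, 46.9 and 46.3 TPM to 9.48, 8.93 and 9.23 TPM, a log2 fold change of -2.23 (SE 0.03, adjusted p = 4.26e-09 by limma), next to -0.995 for VPS35. VPS26C did not reach the level required for testing and had 0.31, 0.47 and 0.24 TPM in control against 0 in each MT-treated library. SNX17, the cargo adaptor of retriever, is described below with the other nexins that carry a FERM domain. The summed level of the 6 retromer and retriever genes was 620.1 ± 10.8 TPM in control against 478 ± 10.6 TPM in MT-treated blastocysts (SD, n = 3 each).

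All 5 genes of the GARP and EARP complexes were higher in MT-treated blastocysts, 3 of them with quantile normalization. These 3 were VPS50, VPS51 and VPS52, which were at 0 throughout control and passed the filter only through the MT group. Their rise is a description. GARP catches vesicles that return from endosomes to the Golgi and consists of VPS51, VPS52, VPS53 and VPS54, while EARP replaces VPS54 by VPS50 and acts on recycling endosomes. VPS51 was listed at 0 in every control pool, and reached 42.8, 40.2 and 43.3 TPM in the MT-treated pools. VPS52 (ENSBTAG00000002643) and VPS50 were likewise at 0 in each of the control pools, and with MT the levels were 44.7, 63.04 and 57.8 TPM for VPS52 and 36.8, 28.6 and 26.6 TPM for VPS50. The remaining subunits were detected in both groups. VPS53 rose from 2.96, 3.08 and 2.74 TPM to 6.96, 8.74 and 7.27 TPM (log2 fold change 1.14, SE 0.09, adjusted p = 1.93e-05 by limma), but had a log2 fold change of -1.37 (adjusted p = 1.67e-06 by limma) with quantile normalization. VPS54 rose from 7.13, 7.58 and 8 TPM to 15.2, 16.99 and 15.1 TPM (log2 fold change 0.97, SE 0.06, adjusted p = 8.43e-06 by limma), with -0.13 (adjusted p = 0.33 by limma) under the same normalization. VPS51, VPS52 and VPS53 are shared by both complexes, so in control the listed levels cover VPS53 and VPS54 alone. The summed level was 10.5 ± 0.354 TPM in control against 151 ± 5.69 TPM in MT-treated blastocysts (SD, n = 3 each).

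ESCRT-I and ESCRT-II, which gather ubiquitinated cargo, showed abundant small subunits that fell beside less abundant ones that rose. VPS28 (ENSBTAG00000026320), the ESCRT-I subunit that binds ESCRT-II, fell from 305, 305 and 308 TPM to 116, 118 and 123 TPM, a log2 fold change of -1.35 (SE 0.02, adjusted p = 1.5e-08 by limma). VPS25, the ESCRT-II subunit that recruits ESCRT-III, fell from 222, 223 and 222 TPM to 173, 167 and 180.3 TPM (log2 fold change -0.36, adjusted p = 2.74e-05 by limma), which turned to 0.12 (adjusted p = 0.00459 by limma) after median centring. VPS36, the ESCRT-II subunit that binds ubiquitin, rose from 4.02, 4.26 and 4.14 TPM to 11.6, 11.6 and 11.7 TPM (log2 fold change 1.298, adjusted p = 6.77e-08 by limma), with -0.92 (adjusted p = 1.89e-06 by limma) under quantile normalization. The 3 libraries of a group lay close together for each of these genes and the groups did not overlap.

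ESCRT-I contains 1 of 4 alternative VPS37 proteins, and none of the 4 was above 0.07 TPM in a control library. VPS37A was listed at 0 in every control pool, and reached 24.3, 21.7 and 23.3 TPM in the MT-treated pools, and VPS37B was likewise at 0 and had 17.8, 19.3 and 17.7 TPM. VPS37C had 0.07, 0 and 0 TPM in control against 0.04, 0.22 and 0.20 TPM in MT-treated pools and was not tested, and VPS37D was at 0 in all 6 libraries. In MT-treated blastocysts the VPS37 genes summed to 41.5 ± 0.583 TPM (SD, n = 3), of which VPS37A held 55.6% ± 2.65 and VPS37B 44.0% ± 2.48.

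In ESCRT-III, which forms the filaments that narrow the neck of the vesicle, 3 of 7 tested CHMP genes rose and 4 fell. CHMP5, a regulator that recruits the VPS4 cofactor, was the most abundant of the CHMP genes in control and fell from 179, 175 and 175 TPM to 84.4, 81.7 and 83.1 TPM, a log2 fold change of -1.08 (SE 0.02, adjusted p = 1.99e-08 by limma). CHMP2A, a core subunit that acts late in assembly and binds VPS4, was the most abundant in MT-treated blastocysts, with 146, 149 and 148 TPM in control against 158, 154 and 159.6 TPM in MT-treated pools. Its log2 fold change was 0.09 (SE 0.02, adjusted p = 0.00396 by limma). CHMP3, the usual partner of CHMP2A, fell from 25.6, 26.9 and 25.9 TPM to 13.6, 13.4 and 13.5 TPM (log2 fold change -0.90, adjusted p = 2.49e-07 by limma). CHMP6, which links ESCRT-II to the polymer and starts it, fell from 28.8, 25.3 and 26.9 TPM to 14.5, 14.5 and 14.4 TPM, and CHMP1A, a late regulator, fell from 35.8, 33.2 and 35.6 TPM to 19.2, 18.4 and 18.4 TPM. Their log2 fold changes were -0.85 and -0.87 (adjusted p = 4.76e-06 and 1.25e-06 by limma). The groups did not overlap for any of these genes.

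CHMP4 proteins make up the bulk of the filament, and CHMP4A rose under all scalings, whereas CHMP4B was higher without quantile normalization only. CHMP4A (ENSBTAG00000039415) rose from 15.4, 15.2 and 15.6 TPM to 29.1, 29.5 and 30.03 TPM, a log2 fold change of 0.90 (SE 0.03, adjusted p = 1.49e-07 by limma). CHMP4B had 0.05, 0 and 0.07 TPM in control against 4.58, 4.36 and 5.31 TPM in MT-treated pools, and its log2 fold change turned from 2.46 to -0.30 with quantile normalization. CHMP4C was at 0 in all 6 libraries. CHMP7, which recruits ESCRT-III to the nuclear envelope, was at 0 in the control libraries against 0.56, 4.55 and 0.84 TPM with MT, and with only 1 library at 1 TPM or more it was not tested. Of the VPS4 paralogues, VPS4A passed the filter only through the MT group, so its rise is a description. VPS4A (ENSBTAG00000001659) was listed at 0 in every control pool, and reached 13.01, 13.4 and 13.4 TPM in the MT-treated pools. VPS4B fell slightly, from 19.8, 20.3 and 19.2 TPM to 15.03, 15.3 and 15.4 TPM (log2 fold change -0.36, SE 0.03, adjusted p = 4.04e-05 by limma), a direction that turned to 0.12 (adjusted p = 0.0106 by limma) after median centring. Over the 11 genes of ESCRT-III and VPS4 the summed level was 447 ± 3.45 TPM in control against 352 ± 2.25 TPM in MT-treated blastocysts (SD, n = 3 each).

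**Figure D4:**
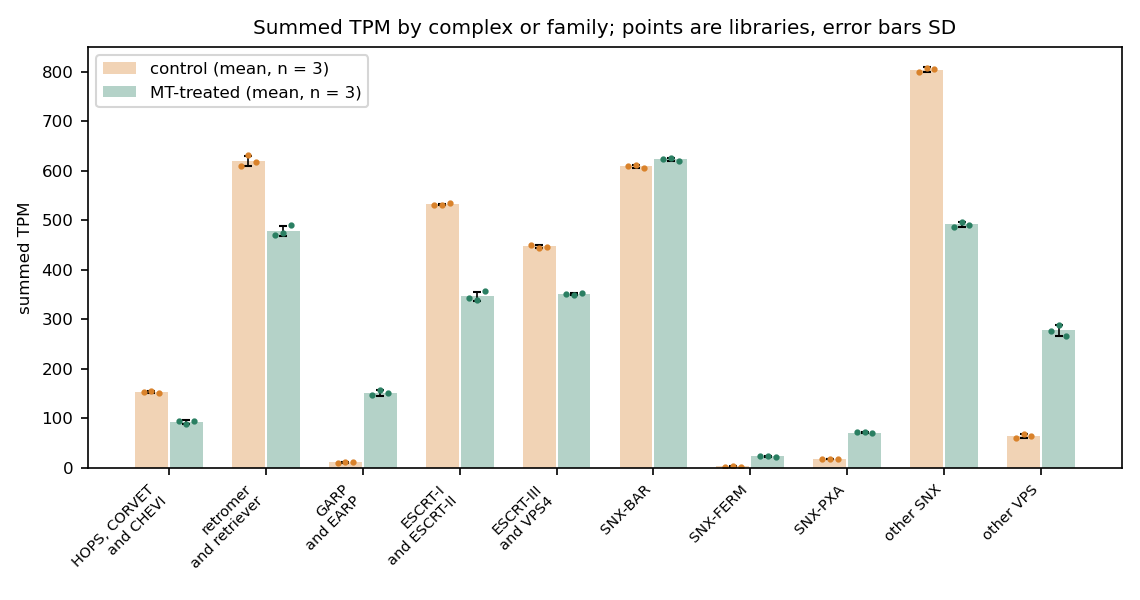
Bars show the summed TPM (y axis) of the genes of each complex or family (x axis) as the mean of 3 control (orange) and 3 MT-treated (green) libraries, with points for libraries and error bars for the SD. The sum was 620.1 against 478 TPM in retromer and retriever, 10.5 against 151 TPM in GARP and EARP, and 609 against 623 TPM in the SNX-BAR nexins.

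Sorting nexins bind the phosphoinositide lipids of endosomes through their PX domain. Those of the SNX-BAR class also carry a BAR domain that bends membranes into tubules, and SNX1 or SNX2 with SNX5 or SNX6 form the tubules along which retromer cargo leaves. Of 10 tested SNX-BAR genes, 6 were higher and 3 lower. SNX1 (ENSBTAG00000002014) was listed at 0 in every control pool, and reached 107, 101 and 102 TPM in the MT-treated pools, the highest level among the 15 genes at 0 in control. Its partner paralogue SNX2 was present in both groups and rose from 58.9, 59.6 and 58.8 TPM to 76.1, 78.6 and 74.97 TPM (log2 fold change 0.37, SE 0.02, adjusted p = 1.02e-05 by limma). SNX5 rose by the same log2 fold change of 0.37 (adjusted p = 2.62e-05 by limma), from 34.02, 36.1 and 34.7 TPM to 45.1, 46.1 and 45.3 TPM. SNX6 fell from 109, 110.1 and 109.5 TPM to 87.6, 88.9 and 88.3 TPM (log2 fold change -0.31, adjusted p = 3.42e-06 by limma), but after median centring it had 0.17 (adjusted p = 9.96e-05 by limma) and with quantile normalization it missed the threshold (adjusted p = 0.388 by limma). The groups did not overlap for these 4 genes, which the filter required for SNX1, and apart from SNX1 their changes were small.

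The largest fall among the SNX-BAR nexins was in SNX9, which acts with dynamin at the plasma membrane during endocytosis, from 181, 177 and 176 TPM to 48.5, 46.5 and 45.8 TPM (log2 fold change -1.90, SE 0.03, adjusted p = 5.48e-09 by limma). SNX4, which recycles receptors from the early endosome, fell from 95.8, 96.4 and 93.2 TPM to 55.4, 57.2 and 52.96 TPM (log2 fold change -0.78, adjusted p = 1e-06 by limma). SNX30, a partner of SNX4, was listed at 0 in every control pool, and reached 18.5, 19.9 and 18.8 TPM in the MT-treated pools. SNX18, a relative of SNX9, rose from 6.33, 6.88 and 6.36 TPM to 40.4, 42.5 and 40.05 TPM (log2 fold change 2.48, SE 0.04, adjusted p = 1.17e-08 by limma). Thus SNX9 and SNX18 were opposite in direction. SNX4 and SNX30 were as well, but the direction of SNX30 was fixed by the filter, which it passed only through the MT group. SNX8 rose from 94.3, 93.5 and 97.5 TPM to 114, 111 and 121 TPM (log2 fold change 0.27, adjusted p = 0.000409 by limma). SNX7 was the only nexin tested that was not called, with 30.5, 31.5 and 28.9 TPM in control against 30.9, 32.5 and 31.5 TPM in MT-treated pools, and its groups overlapped (log2 fold change 0.06, SE 0.04, adjusted p = 0.179 by limma). It passed the threshold under median centring and quantile normalization, with log2 fold changes of 0.54 and 0.25. SNX33, also a relative of SNX9, was at 0 in control and at 0.33, 0.48 and 0.49 TPM in MT-treated pools and was not tested. The summed level of the class was 609 ± 3.10 TPM in control against 623 ± 2.43 TPM in MT-treated blastocysts (SD, n = 3 each).

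Both detected nexins with a FERM domain, which reads sorting signals in receptor tails, were higher in MT-treated blastocysts, SNX17 not so with quantile normalization. SNX27 (ENSBTAG00000001942), which carries retromer cargo back to the plasma membrane, had 0.21, 0.49 and 0.54 TPM in control against 15.9, 16.5 and 15.9 TPM in MT-treated pools. SNX17 rose from 2.02, 2.18 and 1.58 TPM to 7.08, 6.77 and 5.53 TPM (log2 fold change 1.35, SE 0.11, adjusted p = 3.39e-05 by limma), but was lower with quantile normalization (log2 fold change -1.22, adjusted p = 1.02e-05 by limma). SNX31 was at 0 in all 6 libraries. SNX13, SNX14, SNX19 and SNX25 form a family of nexins with a PXA domain, and its 3 tested genes were higher as well. SNX13 was listed at 0 in every control pool, and reached 36.8, 34.7 and 35.97 TPM in the MT-treated pools. SNX19 rose from 3.05, 2.76 and 2.90 TPM to 14.2, 15.1 and 14.6 TPM (log2 fold change 2.003, adjusted p = 3.09e-08 by limma), and SNX14 from 14.1, 15.1 and 14.5 TPM to 20.01, 21.3 and 19.3 TPM (log2 fold change 0.44, adjusted p = 0.000108 by limma), the latter missing the threshold with quantile normalization (adjusted p = 0.319 by limma). SNX25 was at 0 in all 6 libraries.

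Among the remaining nexins, most of which consist of little more than the PX domain, 5 were higher and 5 lower. SNX3, which recruits retromer to the early endosome and carries the Wnt receptor escort WLS, was the most abundant of all 73 genes in both groups. It fell from 524, 528 and 515 TPM to 359, 367 and 353 TPM, a log2 fold change of -0.54 (SE 0.02, adjusted p = 3.87e-07 by limma). Its close relative SNX12 had 0.75, 0.52 and 0.49 TPM in control against 8.92, 9.05 and 8.70 TPM in MT-treated pools, and its log2 fold change turned from 2.64 to -0.50 with quantile normalization. The largest falls were in SNX24, from 114, 111 and 114 TPM to 24.7, 26.1 and 24.1 TPM (log2 fold change -2.13, SE 0.03, adjusted p = 8.46e-09 by limma), and in SNX29, from 115, 122 and 129.6 TPM to 37.95, 38.7 and 46.8 TPM (log2 fold change -1.55, adjusted p = 4.84e-06 by limma). SNX16, which has a coiled coil beside its PX domain, fell from 43.6, 45.3 and 46.04 TPM to 20.3, 19.6 and 19.3 TPM (log2 fold change -1.15, adjusted p = 1.3e-07 by limma). These 3 falls exceeded the spread between libraries, and the groups did not overlap. SNX21 stood near the lower limit of testing, with 1.35, 1.66 and 1.37 TPM in control against 1.01, 1 and 1.18 TPM in MT-treated pools. Its log2 fold change of -0.25 (adjusted p = 0.00869 by limma) turned to 0.23 (adjusted p = 0.0138 by limma) after median centring.

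Listed at 0 in every control library were 4 further nexins. SNX10, which is needed for the function of osteoclasts and binds the lysosomal proton pump, had 10.9, 11.8 and 9.87 TPM in the MT-treated pools. SNX22 had 12.9, 8.63 and 9.03 TPM and SNX15, which carries a MIT domain beside its PX domain, had 7.13, 7.66 and 7.97 TPM in the MT-treated pools. SNX11, a close relative of SNX10, varied most, with 3.91, 7.51 and 11.4 TPM in the MT-treated pools. SNX11 lost its call with quantile normalization. SNX20 was at 0 in all 6 libraries. The summed level of this group was 805 ± 5.08 TPM in control against 492 ± 5.11 TPM in MT-treated blastocysts (SD, n = 3 each), and SNX3 alone made up most of both sums.

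The VPS symbol also covers genes that belong to none of these complexes. VPS13 proteins are very large channels that pass lipids between membranes at contact sites. VPS13B (ENSBTAG00000012357), a Golgi protein, had 0.51, 0.80 and 0.49 TPM in control against 104, 118 and 120.02 TPM in MT-treated pools. VPS13D (ENSBTAG00000016080), which acts at mitochondria and peroxisomes, had 4.40, 0.81 and 0 TPM in control against 94.6, 101 and 68.6 TPM in MT-treated pools. The control values of VPS13D were widely spread, although all lay below the MT-treated values. VPS13A had 5.56, 18.7 and 17.01 TPM in control against 10.1, 5.04 and 10.8 TPM in MT-treated pools and was not called (log2 fold change -0.52, SE 0.49, adjusted p = 0.34 by limma). Its groups overlapped, it passed the threshold with quantile normalization (log2 fold change -2.37, adjusted p = 0.000721 by limma), and without the first control library, the lowest of the 3, its log2 fold change was -1.03 (adjusted p = 0.0266 by limma). VPS13C had 10.8, 11.1 and 8.89 TPM in control against 9.24, 7.95 and 7.57 TPM in MT-treated pools, with overlapping groups and a log2 fold change of -0.28 (adjusted p = 0.0373 by limma). That call was lost without control replicate 1 or 2 and without MT-treated replicate 2 or 3 (adjusted p from 0.109 to 0.124 by limma), and after median centring the log2 fold change was 0.20 (adjusted p = 0.121 by limma). Together the VPS13 genes summed to 26.4 ± 5.04 TPM in control against 219 ± 12.7 TPM in MT-treated blastocysts (SD, n = 3 each).

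VPS45, an SM protein that guides fusion at the early endosome and the Golgi, had 0.04, 0.04 and 0 TPM in control against 28.2, 28.7 and 29.5 TPM in MT-treated pools. VPS9D1, named for a domain that activates RAB5 proteins, had 0.11, 0.19 and 0.10 TPM in control against 2.64, 2.72 and 2.95 TPM in MT-treated pools, and its log2 fold change turned from 1.73 to -0.89 with quantile normalization. VPS72 is a nuclear protein of chromatin remodelling complexes and shares only the name with the sorting genes. It fell from 38.7, 35.5 and 37.2 TPM to 28.1, 25.3 and 26.9 TPM (log2 fold change -0.46, adjusted p = 0.000146 by limma), and after median centring it had 0.02 and was not called.

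Within families of paralogues the split of the summed level differed between the groups, and the leading gene changed in SNX1 with SNX2, in VPS33A with VPS33B and in the VPS13 family. The new leaders SNX1, VPS33A and VPS13B were under 1 TPM in all control libraries, so these changes of leader are a description. VPS26A held 88.7% ± 0.395 of the summed VPS26A and VPS26B level in control and 75.3% ± 0.895 in MT-treated blastocysts (SD, n = 3 each). VPS4A held 0% in each control library and 46.5% ± 0.163 of the VPS4 level in MT-treated blastocysts, while the VPS4 sum rose from 19.8 ± 0.530 to 28.5 ± 0.375 TPM (SD, n = 3 each). VPS33A held 0% in each control library and 57.9% ± 2.16 of the sum of VPS33A and VPS33B in MT-treated blastocysts (SD, n = 3), although these proteins serve different complexes. SNX1 held 0% in each control library and 57.4% ± 1.04 of the sum of SNX1 and SNX2 in MT-treated blastocysts, and that sum rose from 59.1 ± 0.452 to 179.9 ± 3.26 TPM (SD, n = 3 each). SNX9 made up 96.5% ± 0.182 of the SNX9, SNX18 and SNX33 level in control and 53.1% ± 1.19 in MT-treated blastocysts (SD, n = 3 each). Of the summed SNX5 and SNX6 level SNX5 held 24.2% ± 0.478 in control and 34.01% ± 0.106 in the MT group (SD, n = 3 each). CHMP4A remained the main CHMP4 gene, with 99.7% ± 0.231 in control and 86.2% ± 1.10 in MT-treated blastocysts, and SNX3 held 99.9% of the sum of SNX3 and SNX12 in control and 97.6% in MT-treated blastocysts. In these 8 families the shares of the 3 control libraries lay apart from those of the 3 MT-treated libraries. With VPS4A, VPS33A and SNX1 at 0 in control this was fixed by the filter, and CHMP4B and SNX12 also passed it only through the MT group. Of all tested genes 96.1% showed no overlap in level, so the separation does not set these families apart. In the VPS13 family VPS13A and VPS13C led in control, with 50.03% ± 20.9 and 39.96% ± 9.46, and VPS13B led in MT-treated blastocysts with 52.2% ± 5.23 (SD, n = 3 each). VPS13A had the largest share in control replicates 2 and 3 and VPS13C in replicate 1. For the VPS37 family no control share is given, since its sum was 0 in 2 of the 3 control libraries. How reads that match more than 1 gene were counted is not given in the sources used here, and a share is uncertain to that extent.

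**Figure D5:**
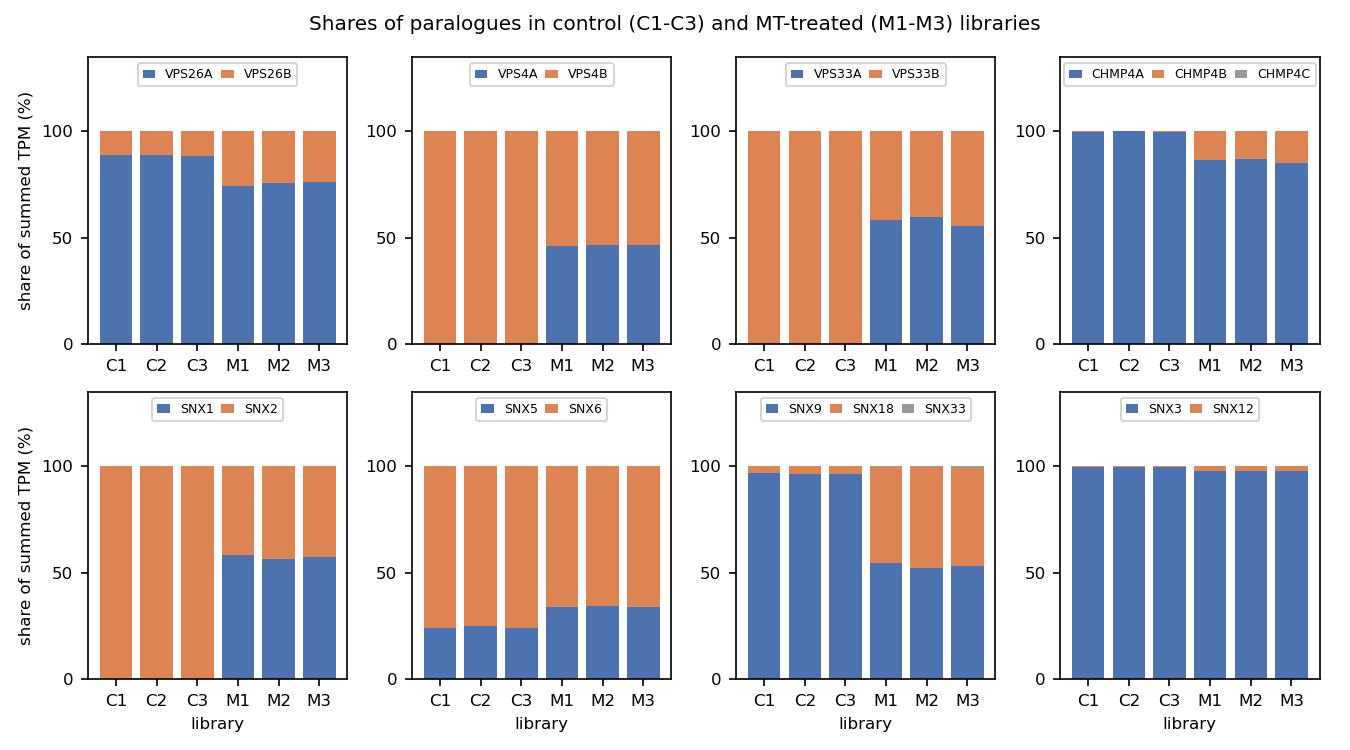
Each panel shows a family of paralogues, with the share of the family's summed TPM in percent (y axis) stacked by gene for control libraries C1 to C3 and MT-treated libraries M1 to M3 (x axis). VPS4A, VPS33A and SNX1 are at 0% in control and at 46.5%, 57.9% and 57.4% on average in MT-treated blastocysts.

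The order of levels within the set also differed between the groups. SNX3, VPS29 and VPS25 were among the 4 most abundant members in both groups, with SNX3 first in both, and VPS29 moved from rank 3 to rank 2 and VPS25 from rank 4 to rank 3. VPS28 went from rank 2 to rank 5 and VPS26A from rank 5 to rank 13. VPS8, rank 14 in control, was rank 45 in MT-treated blastocysts, and VPS35L went from rank 18 to rank 52. In the other direction SNX1, at 0 in control, was rank 8 in MT-treated blastocysts, and VPS13B was rank 7. Over all 73 genes the summed level was 3260.3 ± 19.9 TPM in control against 2905 ± 15.1 TPM in MT-treated blastocysts (SD, n = 3 each). Replicates agreed closely, since the 19 members with at least 20 TPM throughout had a median coefficient of variation of 1.32% in control and 2.67% in MT-treated blastocysts, against 2.07% and 2.56% over 2992 tested genes at that level. VPS13D and VPS13A were far less regular, with coefficients of variation of 134.8% and 51.9% in control.

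Other genes of endosomal sorting, among them partner subunits, GTPases, lipid kinases and cargo receptors, were also split between higher and lower levels. Of 51 such genes 49 were in the table and 46 met the level required for testing, of which 22 were higher, 22 lower and 2 not called, beside 61.6% higher and 34.1% lower over all tested genes. With quantile normalization 18 were higher and 28 lower, and after median centring 26 and 17, so the even split depends on the scaling. The counts over all tested genes shifted as well, to 5550 higher and 5311 lower with quantile normalization and to 8412 and 3038 after centring. Of the 46 tested partner genes 8 (17.4%) had a listed level of 0 in the whole control group, beside 33.8% of all tested genes, and 2 untested genes, SORL1 and WASHC4, did as well. In all, 10 of the 22 higher genes were under 1 TPM throughout control and were tested through the MT group alone. They were 21.7% of the 46 tested partner genes, beside 42.5% of all tested genes. The largest falls were in VIPAS39, the partner of VPS33B in CHEVI, which had 74.4, 68.8 and 73.9 TPM in control against 0.67, 0.88 and 0.65 TPM in MT-treated pools and was tested through its control level alone, and in STAM, an ESCRT-0 subunit, with 109, 102 and 103 and 5.04, 5.11 and 4.83 TPM (log2 fold change -4.14, adjusted p = 8.98e-10 by limma). UMAD1, an accessory ESCRT-I protein, fell from 73.01, 70.6 and 68.9 TPM to 13.4, 13.6 and 15.4 TPM (log2 fold change -2.25, adjusted p = 7.23e-08 by limma). VPS33B and VIPAS39, the known components of CHEVI, were both lower in MT-treated blastocysts. The direction of VIPAS39 was fixed by the filter, so of these genes only VPS33B was above 1 TPM in both groups. The highest genes among those at 0 in control were TBC1D5, a RAB7 regulator that binds retromer, with 56.8, 51.8 and 42.95 TPM in the MT-treated pools, VTA1, the VPS4 cofactor, with 49.2, 47.4 and 46.03 TPM, and RAB5A, the early endosome GTPase, with 42.97, 44.03 and 41.1 TPM. RAB7A, the late endosome GTPase that HOPS binds, had 71.6, 69.8 and 72.03 TPM in control against 69.01, 69.8 and 70.3 TPM in MT-treated pools and was not called (log2 fold change -0.03, adjusted p = 0.233 by limma), and WASHC1, of the WASH complex that builds actin on endosomes, was not called either (log2 fold change -0.05, adjusted p = 0.391 by limma). These 2 genes that were not called were named after their values were seen.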

How the data were processed

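RNA was extracted from pools of bovine blastocysts of 2 groups, control and MT-treated, with 3 libraries each, and sequenced as paired-end reads. The sample labels name a TruSeq kit and the study's methods name Smart-seq2, and which was used cannot be told from the values. According to the submitters' processing notes, the reads passed FastQC (version 0.11.9), STAR (2.7.9a) and featureCounts from Subread (1.6.3), and DESeq2 was named as well. The notes give the build ARS-UCD1.2, whereas the methods name a later release. The deposited table holds TPM values per gene and library, rounded by the authors to 2 decimals, and how TPM was computed is not given in the sources used here. TPM keeps no read counts, so the depth behind a single value is unknown and no counting interval was given. The study describes the sequencing depth of its libraries in a supplement that was not used here.

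Samples were grouped by the treatment in their labels. Genes with at least 1 TPM in at least 3 libraries were tested as log2(TPM + 1) with limma (3.58.1, R 4.3.3), using lmFit and eBayes with trend, two-sided, without a block, and Benjamini-Hochberg adjustment over all tested genes at a threshold of 0.05. A fold change on this scale understates the change of low genes. The fit was also run on simulated data in which few genes differed between the groups. Most tested genes differ here, so that run does not show how the fit behaves with these data. Members follow from the symbol rule, and all 73 symbols were found in the RefSeq gene table of assembly ARS-UCD2.0. Members and gene lists, including partner and marker lists, were chosen with earlier results of these data known. The naming rule took all tested subunits of the tethering, retromer, retriever and ESCRT groups, nexins and other VPS genes at 0 throughout a group, the 2 highest and 2 lowest called genes of each family and the retromer-linked nexins. The other members and the 2 partners that were not called were named after their values were seen. CHMP1B, CHMP2B and SNX32 were not analysed here. Alternatives were no filter, a filter at 5 TPM, a pseudocount of 0.1, genes above 0 in all 6 libraries, median centring, quantile normalization, eBayes without trend, a replicate block and leaving out each library. The runs that left out a library kept the genes tested with all libraries.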

Additional observations from a re-analysis of the deposited data

How the results depend on the processing

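Of the 64 tested members, 45 kept their direction and call under all alternatives that tested them. The counts of members called, 37 higher and 25 lower, were the same with a pseudocount of 0.1, with eBayes without trend and with the replicate block, and were 39 and 26 with no filter and 34 and 23 at a minimum of 5 TPM. Over all genes the counts were 7367 and 4071 in the main fit, 8871 and 4372 with no filter, and 5750 and 3815 at 5 TPM. When only genes above 0 in all 6 libraries were kept, which removes genes listed at 0 in control, 18 members were higher, with 1 in HOPS, CORVET and CHEVI, 2 in GARP and EARP, 1 in ESCRT-I and ESCRT-II, 2 in ESCRT-III and VPS4, 1 among the other SNX genes and 2 among the other VPS genes, and 14 partner genes and 2814 of all genes were higher. In the same setting 25 members, 22 partner genes and 3626 of all genes were lower.

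Median centring gave 43 higher and 18 lower members, with 2 higher in retromer and retriever, 1 lower in ESCRT-I and ESCRT-II and 0 lower among the other VPS genes. It turned VPS26B to 0.31, VPS25 to 0.12, VPS4B to 0.12, SNX6 to 0.17, SNX21 to 0.23, VPS13C to 0.20 and VPS72 to 0.021 (log2 fold change). Quantile normalization gave 28 higher and 30 lower members, with 3 higher and 1 lower in GARP and EARP, 1 higher and 1 lower in SNX-FERM, 3 higher among the other SNX genes and 4 lower among the other VPS genes. It turned VPS53 to -1.37, VPS54 to -0.13, VPS36 to -0.92, CHMP4B to -0.30, SNX17 to -1.22, SNX12 to -0.50 and VPS9D1 to -0.89. Over all genes, centring gave 8412 higher and 3038 lower and quantile normalization 5550 and 5311. The cause of these turns was not tested.

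With single libraries left out, the count of other VPS genes called lower ran from 1 to 2. It was 1 without control replicate 2, MT-treated replicate 2 or MT-treated replicate 3, where VPS13C was lost, and without control replicate 1 VPS13C was lost and VPS13A was called. Replicate numbers are shared by both groups, but the correlations of deviations of same-numbered libraries were -0.011, -0.001 and 0.059, 2 of 6 libraries correlated best with their own number, and no label ties a number to a production run. Treatments ran side by side within each run, so libraries of both groups can share runs, but which do is not given in the sources used here, and the numbers were not taken as pairs. With the replicate block 37 members were higher and 25 lower, and 7379 higher and 4082 lower over all genes.

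Without read counts, a gene listed at 0 cannot be separated from a gene below detection, and this limit touches the 15 members listed at 0 in control.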
